A study of Drosophila melanogaster with 10 samples.

Results

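RNA of ovarian somatic cells depleted of Armi was compared directly with RNA of the same cells depleted of Piwi. The comparison takes 2 of the 10 libraries of the study, both among its 6 RNA libraries, and covers every gene and transposable element (TE) family whose mean over both libraries was at least 1 RPKM (reads scaled by the length of the feature and by the library total). This left 114 of 177 TE entries and 7590 of 13984 gene names. The cells were OSC, a cultured line from the somatic tissue of the Drosophila melanogaster ovary, kept at 26 °C and harvested on day 2 after a single siRNA transfection. The Armi knock-down received an siRNA against armi and the Piwi knock-down an siRNA against piwi. Of the other 4 RNA libraries, 3 came from knock-downs of Mael, CG3893 and HP1a, and the control received an siRNA against EGFP. The genotype is that of the line and is shared by all the libraries. Each condition was sequenced in 1 library of poly(A) RNA, so no difference below has a replicate check and no test was possible. A limit of 2-fold on log2((Armi + 1)/(Piwi + 1)) stands in place of a test, and negative values mean lower in the Armi library.

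In the piRNA pathway, short RNAs guide PIWI proteins to transcripts of transposable elements. Armi is an RNA helicase of the cytoplasmic Yb body and of the mitochondrial surface, where piRNA precursors are cut and loaded into Piwi. Loaded Piwi enters the nucleus and directs silencing of TE transcription together with partners such as Mael, CG3893 (also called Asterix or Gtsf1) and HP1a, and Piwi that carries no piRNA stays largely outside the nucleus. Follicle cells and OSC use this linear pathway without the ping-pong cycle of the germline, and the families it is best known to silence there are the LTR retrotransposons of the gypsy type.

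The library totals worked out from the TE values were 22307339 reads for Armi and 36729626 for Piwi, within a range of 18584526 to 36729626 over the 6 RNA libraries. Of 18 listed markers of ovarian somatic cells, 14 had a mean of at least 1 RPKM over the Armi and Piwi libraries. Over the 6 libraries, tj (a transcription factor of gonadal soma) was at 151 to 206 RPKM, zfh1 at 105 to 130 RPKM and fs(1)Yb at 47.2 to 74.2 RPKM. Germline markers divided: of 20 listed, 12 had a mean of at least 1 RPKM over the Armi and Piwi libraries. Several were low, with nos at no more than 0.061 RPKM, osk at no more than 0.118 RPKM and vas at 1.12 to 6.38 RPKM, the highest vas value being in the HP1a library. Others were well above that. The germ plasm gene pgc was at 52.1 RPKM in the Armi library and 49.3 RPKM in the Piwi library, against 45.8 RPKM in the control. Sxl, also active in somatic cells, was at 39.6 RPKM in the Armi library and 44.1 RPKM in the Piwi library, against 49.0 RPKM in the control. The summed level of the list was 874 RPKM in the Armi library and 441 RPKM in the Piwi library, piwi and mael included. Hemocyte markers Hml, He and nimC1 were at or near 0, while srp, listed with them, was at 8.83 to 21.6 RPKM, and elav, a neuron marker, was at 9.81 to 12.4 RPKM in all 6 libraries. In such bulk libraries, fewer cells of a type and less RNA per cell cannot be told apart.

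Each targeted gene was lowest in its own library. The armi RNA (3L:3461322-3466314, build dm3) was at 168 RPKM in the Armi library and 557 RPKM in the Piwi library, against 489 RPKM in Mael, 509 RPKM in CG3893, 465 RPKM in HP1a and 469 RPKM in the control. The piwi RNA (2L:10982204-10987416) was at 607 RPKM in the Armi library and 174 RPKM in the Piwi library, against 600 RPKM in Mael, 602 RPKM in CG3893, 426 RPKM in HP1a and 576 RPKM in the control. Relative to the control, armi RNA stood at 35.9% in the Armi library and piwi RNA at 30.1% in the Piwi library. The partner transcript was not reduced in either, with piwi at 105% of the control in the Armi library and armi at 119% in the Piwi library. Directly compared, armi differed by -1.72 and piwi by 1.80 on the log2 scale. The RNA of the other targeted genes was nearly equal, with mael at 79.6 RPKM in the Armi library and 79.5 RPKM in the Piwi library. CG3893 was at 22.5 RPKM in the Armi library and 21.4 RPKM in the Piwi library, and the gene of HP1a was at 386 RPKM in the Armi library and 369 RPKM in the Piwi library. Protein levels are not part of these files, and how far the depletion of each protein went was not tested.

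TE families were mostly lower after knock-down of Armi than after knock-down of Piwi. Past the 2-fold limit, 7 families were lower in the Armi library (6.14% of 114) and 1 entry was higher (0.877%). In any amount, 84 families were lower and 30 were higher, and the median difference was -0.11. For comparison, 45 of the 7590 genes were lower past the same limit (0.593%) and 24 were higher (0.316%), with a median difference of 0.01. At a limit of 1.5-fold, 11 families were lower (9.65%) and the same number as before, 1, was higher (0.877%). The single higher entry, 5S, carries the name of a ribosomal RNA and rested on 6 reads in the Armi library and 1 in the Piwi library.

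**Figure D1:**
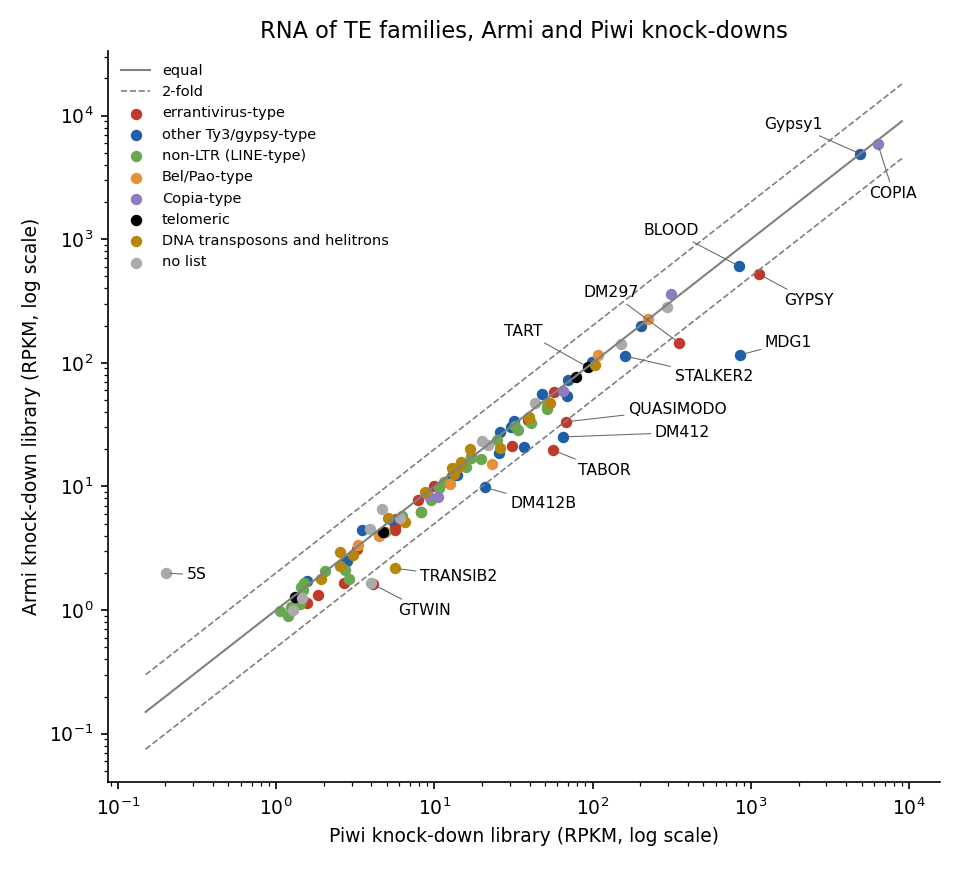
RNA of the 114 TE families in counts, with the Armi library on the vertical axis and the Piwi library on the horizontal axis, both in RPKM on log scales, coloured by family list. The solid line marks equal values and the dashed lines a 2-fold ratio. MDG1, at 116 RPKM in the Armi library and 853 RPKM in the Piwi library, lies farthest below the equal line, while COPIA and Gypsy1, the most abundant families, lie on or close to it.

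MDG1, an LTR retrotransposon of the Ty3/gypsy superfamily, had the largest difference of all families. It was at 116 RPKM in the Armi library and 853 RPKM in the Piwi library, with 1628 RPKM in Mael, 742 RPKM in CG3893, 459 RPKM in HP1a and 5.45 RPKM in the control. All 5 knock-down libraries were far above the control, and the Armi library was the lowest of the 5. The Piwi level was 7.36 times the Armi level (95% exact binomial interval 7.25 to 7.47, from 18189 reads in the Armi library and 220488 in the Piwi library). This and the intervals below cover counting error only, because no condition had a replicate library. Variation between cultures, transfections and library preparations is therefore not in these intervals. Copies of a molecule made by PCR cannot be recognised in these reads, so the intervals may understate even the counting error. The log2 difference of MDG1 was -2.87, and without MDG1 the median of the other 113 families was still -0.11.

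The families DM412 and DM412B, further Ty3/gypsy-type retrotransposons, were likewise lower in the Armi library. DM412 was at 25.2 RPKM in the Armi library and 65.3 RPKM in the Piwi library, with 169 RPKM in Mael, 42.3 RPKM in CG3893, 67.2 RPKM in HP1a and 4.55 RPKM in the control. DM412B was at 9.81 RPKM in the Armi library and 21.0 RPKM in the Piwi library, with 57.9 RPKM in Mael, 16.8 RPKM in CG3893, 23.9 RPKM in HP1a and 4.19 RPKM in the control. In both, the Armi library was the lowest of the 5 knock-downs and still above the control. The Piwi level was 2.59 times the Armi level for DM412 (95% interval 2.51 to 2.69) and 2.14 times for DM412B (1.75 to 2.63). The log2 differences were -1.34 for DM412 and -1.02 for DM412B. Reads that match both entries, or MDG1 as well, may be counted in any of them, because the handling of such reads is not given in the sources used here.

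Among the errantivirus-type families, gypsy relatives of which several carry an envelope gene, TABOR, DM297 and GYPSY were past the limit. TABOR was at 19.6 RPKM in the Armi library and 56.3 RPKM in the Piwi library, with 118 RPKM in Mael, 29.2 RPKM in CG3893, 123 RPKM in HP1a and 3.65 RPKM in the control. DM297 was at 145 RPKM in the Armi library and 351 RPKM in the Piwi library, with 797 RPKM in Mael, 283 RPKM in CG3893, 1090 RPKM in HP1a and 20.1 RPKM in the control. Both were lowest in the Armi library among the 5 knock-downs. GYPSY itself was at 521 RPKM in the Armi library and 1125 RPKM in the Piwi library, with 1023 RPKM in Mael, 465 RPKM in CG3893, 976 RPKM in HP1a and 34.7 RPKM in the control. For this family the CG3893 library was the lowest knock-down and the Piwi library the highest. Piwi levels were 2.87 times Armi levels for TABOR (95% interval 2.76 to 2.98), 2.42 times for DM297 (2.38 to 2.46) and 2.16 times for GYPSY (2.14 to 2.17). The log2 differences were -1.47, -1.27 and -1.11 for TABOR, DM297 and GYPSY in that order.

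TRANSIB2, a DNA transposon, was the only family lower past the limit that is not an LTR retrotransposon. It was low in all libraries, at 2.18 RPKM in Armi and 5.66 RPKM in Piwi, with 9.14 RPKM in Mael, 3.52 RPKM in CG3893, 11.2 RPKM in HP1a and 1.26 RPKM in the control. Its 138 reads in the Armi library and 591 in the Piwi library gave a Piwi level 2.60 times the Armi level (95% interval 2.16 to 3.15) and a log2 difference of -1.07. With a pseudocount of 5 in place of 1 the difference was -0.57, short of the limit, as was that of DM412B at -0.81.

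Just under the limit stood QUASIMODO, GTWIN, TLD2 and STALKER4. QUASIMODO, another errantivirus-type family, was at 33.3 RPKM in the Armi library and 67.6 RPKM in the Piwi library, with 255 RPKM in Mael, 122 RPKM in CG3893, 1394 RPKM in HP1a and 9.41 RPKM in the control. Its log2 difference was -0.999, barely short of the limit, and it passed the limit at -1.01 after centring on the median gene and at -1.04 after scaling both libraries to equal gene totals. GTWIN was at 1.62 RPKM in the Armi library and 4.09 RPKM in the Piwi library, with 1.41 RPKM in the control, and its difference of -0.96 became -1.28 with a pseudocount of 0.1. In both families the Piwi library stood farther from the control than the Armi library did. STALKER4 was at 20.7 RPKM in the Armi library and 36.9 RPKM in the Piwi library, against 3.20 RPKM in the control, a log2 difference of -0.80. TLD2, an entry with 8 reads in the Armi library and 32 in the Piwi library, is too shallow for a ratio, its interval for the Piwi level over the Armi level running from 1.1 to 6.1. STALKER4 was the last of the 11 past 1.5-fold. ROO, a Bel/Pao-type retrotransposon, was next and short of that limit at -0.58, with 15.3 RPKM in the Armi library and 23.3 RPKM in the Piwi library, against 10.3 RPKM in the control.

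**Figure D2:**
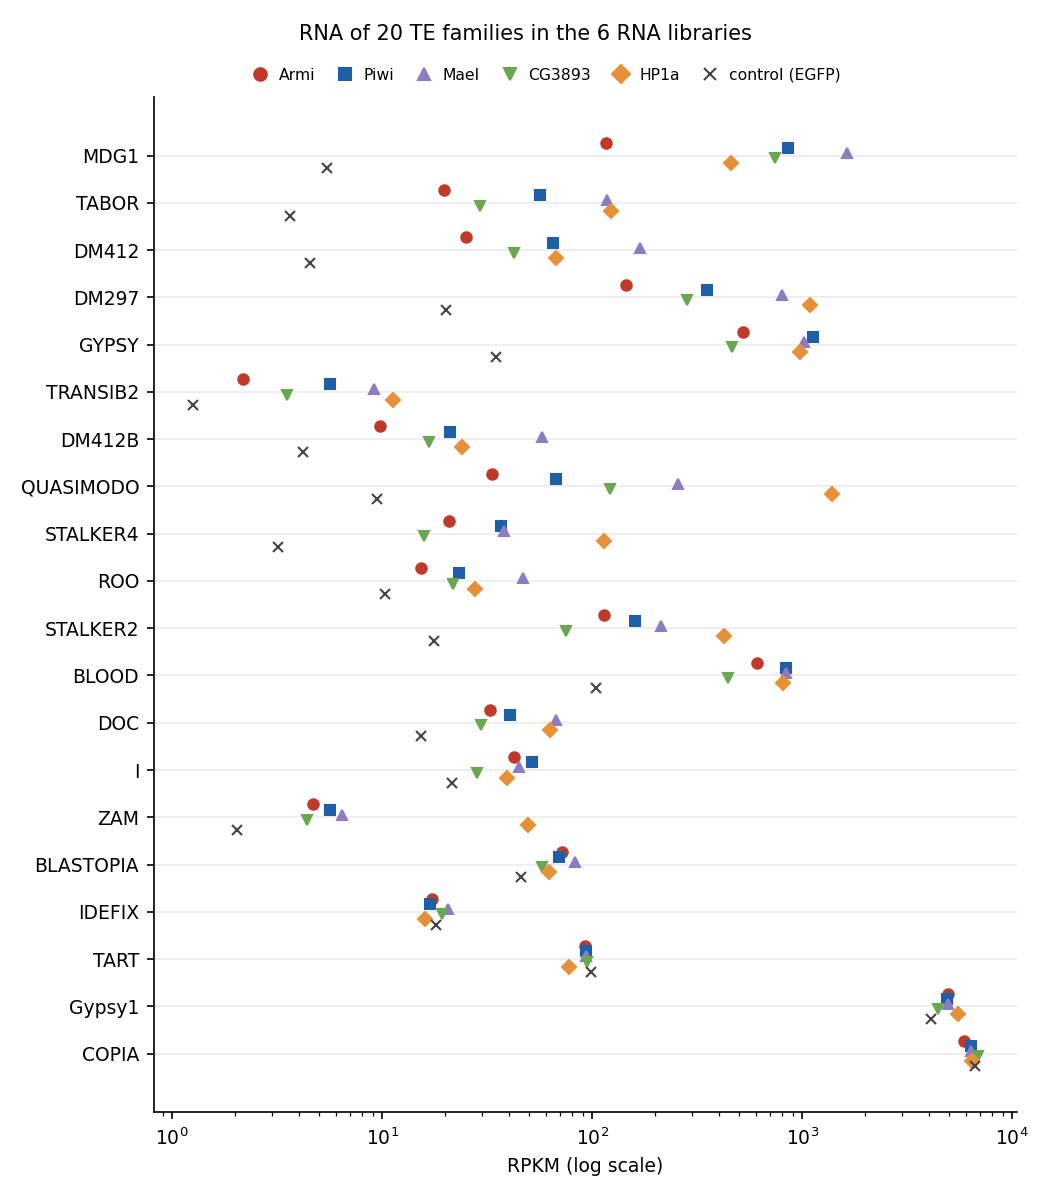
RNA of 20 TE families, given by rows, in the 6 RNA libraries, in RPKM on a log scale. Each symbol is 1 library, and symbols are shifted up or down within a row only to keep them apart. In the upper rows the Armi library lies between the control and the Piwi library, as for MDG1 at 116 RPKM in Armi, 853 RPKM in Piwi and 5.45 RPKM in the control. In the lowest rows, such as IDEFIX, TART and COPIA, the libraries nearly coincide, apart from the HP1a library in TART.

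All 7 families past 2-fold, and all 11 past 1.5-fold, had the Armi level between the control level and the Piwi level. The same order held in 69 of all 114 families, and it can hold only in the 84 that were lower in the Armi library. The Armi library was the lowest of the 5 knock-downs in 6 of these 7 families and in 9 of these 11, and in 52 of all 114. The 7 and the 11 were chosen for an Armi level below the Piwi level, which partly fixes these counts. A further view takes the 27 families that were at least 2-fold over the control in the Piwi library, a choice that uses the Piwi values and is therefore a description only. In each of these 27 families the Armi level was below the Piwi level and above the control. The Armi level ran from 13.6% of the Piwi level in MDG1 to 89.1% in Transib5, with a median of 65.6%. Among the other 87 families the median was 95.2%, and 57 were below 100%.

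The distance between the knock-downs differed greatly among abundant families. For MDG1 the Armi library exceeded the control by 110 RPKM and the Piwi library by 847 RPKM. For GYPSY the excess was 487 RPKM in the Armi library and 1090 RPKM in the Piwi library. BLOOD, a further LTR retrotransposon, was at 606 RPKM in the Armi library and 840 RPKM in the Piwi library, against 104 RPKM in the control, an excess of 502 RPKM in Armi and 735 RPKM in Piwi. STALKER2 was at 114 RPKM in the Armi library and 159 RPKM in the Piwi library, against 17.6 RPKM in the control. Thus MDG1 was at 13.6% of its Piwi level in the Armi library, while BLOOD was at 72.2% and STALKER2 at 71.4% of theirs.

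LINE-type families, which move by target-primed reverse transcription and have no LTR, showed small differences. Of 26 measured, 23 were lower in the Armi library in any amount and none was past 1.5-fold. Over all TE families 84 of 114 were lower, a smaller share. The median of the LINE-type families, -0.13, was close to the -0.11 over all TE families. DOC was at 32.7 RPKM in the Armi library and 40.6 RPKM in the Piwi library, against 15.3 RPKM in the control. The I element was at 42.3 RPKM in the Armi library and 51.8 RPKM in the Piwi library, against 21.6 RPKM in the control. R1, which inserts into ribosomal DNA, was at 1.77 RPKM in the Armi library and 2.91 RPKM in the Piwi library, against 0.706 RPKM in the control, and its difference of -0.49 was the largest of the LINE-type families. Both knock-downs lay above the control in these 3, with Armi the nearer to it.

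Most of the families lower past 2-fold were Ty3/gypsy relatives. Over all 114 families, 7 were lower past 2-fold and 84 in any amount, with a median of -0.11. Of 19 errantivirus-type families, 3 were lower past 2-fold and 16 in any amount, with a median of -0.29. Of 23 other Ty3/gypsy-type families, 3 were lower past 2-fold and 15 in any amount, with a median of -0.10, near that of all families. Among 18 DNA transposons and helitrons, 1 was lower past 2-fold and the median was -0.09. No member was past 2-fold among 7 Bel/Pao-type, 5 Copia-type and 4 telomeric families, whose medians were -0.13, -0.10 and -0.03 in that order. The remaining 12 entries are in no list, had a median of -0.04, and include names that are not those of TE families.

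Other gypsy relatives and the telomeric elements had smaller differences or hardly any. ZAM, an errantivirus, was at 4.66 RPKM in the Armi library and 5.64 RPKM in the Piwi library, with 49.2 RPKM in HP1a and 2.04 RPKM in the control. IDEFIX was at 17.4 RPKM in the Armi library and 17.0 RPKM in the Piwi library, against 18.0 RPKM in the control, so neither knock-down stood apart from the control there. DM176, an errantivirus-type family, was at 21.3 RPKM in the Armi library and 31.0 RPKM in the Piwi library, against 18.1 RPKM in the control. TART, which maintains chromosome ends, was at 92.5 RPKM in the Armi library and 93.1 RPKM in the Piwi library, against 98.9 RPKM in the control, and HETA, another telomeric element, was at 4.26 RPKM in the Armi library and 4.77 RPKM in the Piwi library, against 5.01 RPKM in the control. Both telomeric elements were thus slightly below the control in either knock-down. BLASTOPIA was at 72.0 RPKM in the Armi library and 69.5 RPKM in the Piwi library, both above the 45.7 RPKM of the control. DM1731, a Copia-type family, was among the 30 families higher in the Armi library in any amount, at 363 RPKM in Armi, 314 RPKM in Piwi and 297 RPKM in the control.

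As a share of all reads, TE entries took 8.83% of the Armi library and 10.4% of the Piwi library, against 7.49% of the control. The 95% interval (Clopper-Pearson) of the Armi share ran from 8.82% to 8.84%. The Armi share lay between that of the control and that of the Piwi library. Most of these reads belong to COPIA and Gypsy1, which were at 5896 and 4920 RPKM in the Armi library, at 6340 and 4871 RPKM in the Piwi library, and at 6658 and 4104 RPKM in the control. Without them the share was 2.45% in the Armi library and 3.86% in the Piwi library, against 1.32% in the control. The entries lower in the Armi library summed to a difference of -16595 RPM (reads scaled by the library total alone), and those that were higher to 685 RPM. MDG1 and GYPSY alone made up 56.7% of the lower sum, and MDG1, GYPSY, COPIA and BLOOD together 79.5%.

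**Figure D3:**
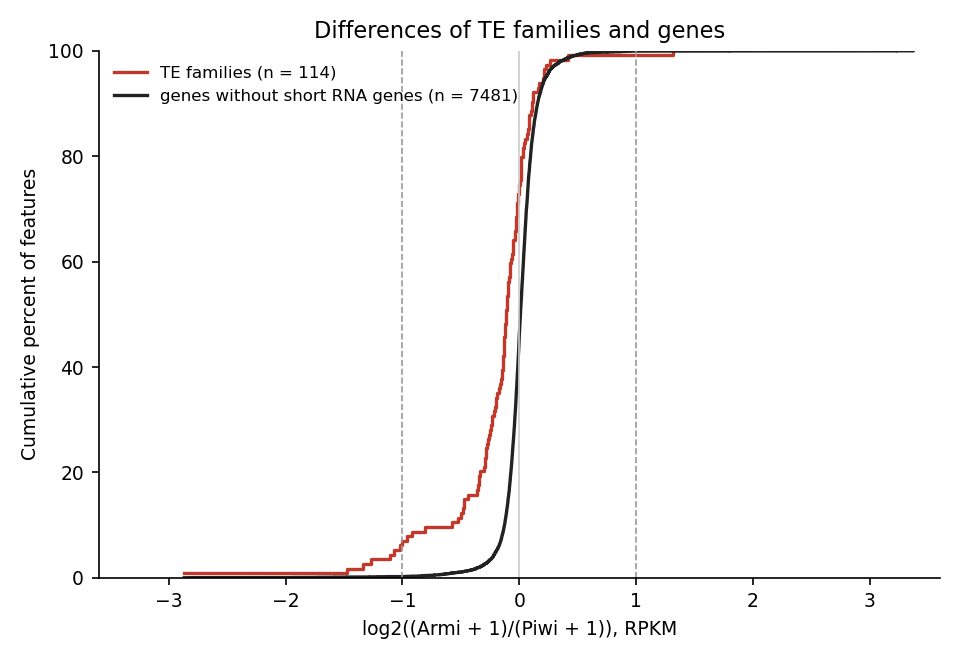
Cumulative distribution of log2((Armi + 1)/(Piwi + 1)) on RPKM for 114 TE families and for 7481 genes other than short RNA genes. Dashed lines mark the 2-fold limits. The TE curve lies to the left of the gene curve over most of its length, with a median of -0.11 for TE families and 0.01 for genes, and its left tail ends at -2.87 with MDG1.

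Gene RNA was close to equal in both libraries. The middle 90% of the 7590 genes lay between -0.21 and 0.24, and 4123 were higher and 3467 lower in the Armi library in any amount. The spread depended on the level, with an SD of 0.54 for genes of mean 1 to 5 RPKM, 0.30 from 5 to 20 RPKM, 0.12 from 20 to 100 RPKM and 0.13 above that. Short RNA genes (small nucleolar, small nuclear, transfer and micro RNA genes and the like), whose transcripts mostly lack poly(A) tails, made up 109 of the measured genes but 19 of the 24 higher and 27 of the 45 lower past 2-fold. Of the 7481 other genes, 5 were higher (0.0668%) and 18 were lower (0.241%). Features at the edge of the filter were the families DMRT1C at a mean of 1.02 RPKM inside and RSP at 0.99 RPKM outside, and among genes CG6763 inside and 5-HT2 outside, both at 1.00 RPKM.

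Of those 23 genes, 8 share nearly all of their locus with another annotated gene, and their values were divided differently between partners while the sum of the locus differed less. CG6299 was at 15.2 RPKM in the Armi library and 0.735 RPKM in the Piwi library, whereas CG6294, annotated over nearly the same bases of X:15356744-15360845, was at 2.84 RPKM in the Armi library and 13.8 RPKM in the Piwi library. Their sum was 18.1 RPKM in the Armi library and 14.5 RPKM in the Piwi library. MED9, a Mediator subunit, was at 0.0015 RPKM in the Armi library and 6.31 RPKM in the Piwi library, but together with CG42518 the locus had 61.2 RPKM in Armi and 62.3 RPKM in Piwi. CG12016 and CG42456 summed to 20.9 RPKM in the Armi library and 20.5 RPKM in the Piwi library. Both loci were thus nearly equal as a whole. Prosalpha1, a proteasome subunit, was at 3.04 RPKM in the Armi library and 14.3 RPKM in the Piwi library, and with CG30382 the locus had 581 RPKM in Armi and 545 RPKM in Piwi. The trio CG33502, CG32500 and CG32857 summed to 89.8 RPKM in the Armi library and 97.0 RPKM in the Piwi library, and CG30503 with kappaB-Ras to 7.73 RPKM in Armi and 7.72 RPKM in Piwi. Summed by locus, none of these was past the limit, their differences lying between -0.11 and 0.30. Leaving out short RNA genes and shared loci, 7417 genes remained, of which 3 were higher (0.0404%) and 12 lower (0.162%) past 2-fold. Some of these reached the minimum mean only through the library where they were high, as given below, which bears on both counts.

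**Figure D4:**
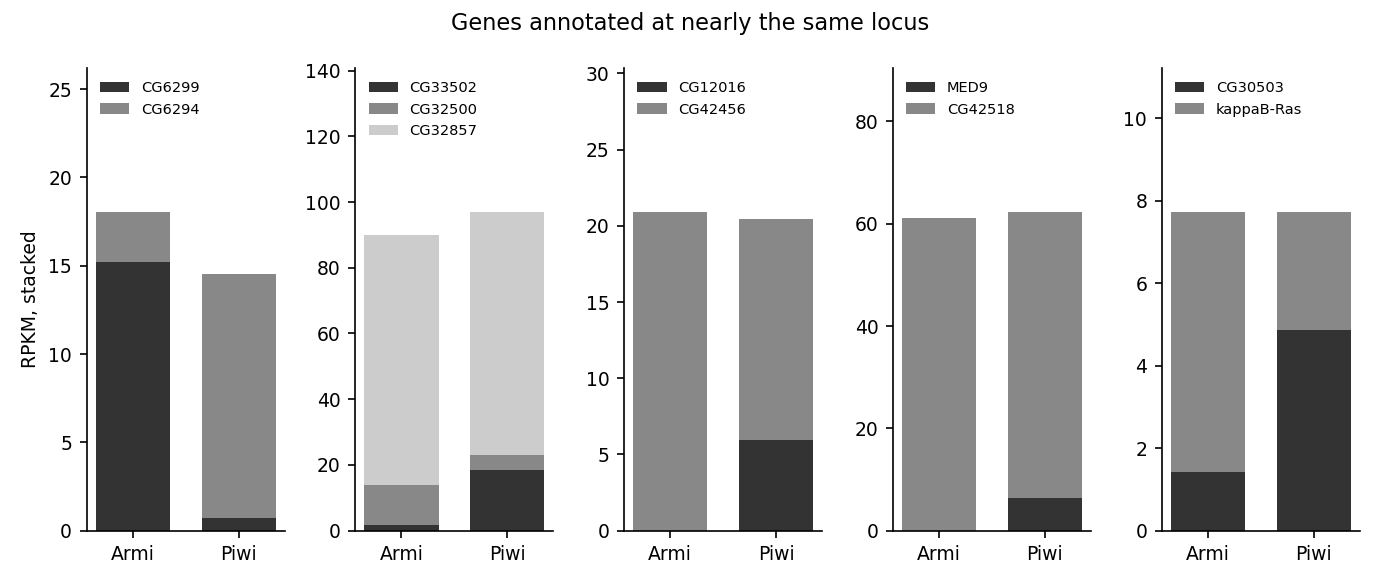
RPKM of genes annotated at nearly the same locus, stacked, in the Armi library (left bar of each panel) and the Piwi library (right bar). Shades mark the genes. The division between partners differs between the libraries while the stacks are of similar height, as for CG6299 with CG6294 at 18.1 RPKM in Armi and 14.5 RPKM in Piwi.

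The 12 genes at loci of their own that were lower in the Armi library comprised armi and 11 others, most of them uncharacterised and low in the control. CG15209 (X:10736187-10737028) was at 14.2 RPKM in the Armi library and 35.4 RPKM in the Piwi library, with 37.6 RPKM in Mael, 19.2 RPKM in CG3893, 40.2 RPKM in HP1a and 1.78 RPKM in the control. CG30076 (2R:10431941-10433264) was at 7.09 RPKM in the Armi library and 19.7 RPKM in the Piwi library, with 34.0 RPKM in Mael, 13.8 RPKM in CG3893, 27.0 RPKM in HP1a and 2.86 RPKM in the control. In both genes every knock-down exceeded the control and the Armi library was the lowest knock-down. Cda5 (2L:25401-59242), a chitin deacetylase-like protein, was at 12.8 RPKM in the Armi library and 30.6 RPKM in the Piwi library, with 39.3 RPKM in Mael, 8.71 RPKM in CG3893, 28.2 RPKM in HP1a and 2.73 RPKM in the control. Here CG3893 was the lowest knock-down and Armi the next. The log2 differences were -1.26 for CG15209, -1.35 for CG30076 and -1.20 for Cda5.

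CG32816 (X:210608-364670), at 3.42 RPKM in the Armi library and 8.66 RPKM in the Piwi library against 0.703 RPKM in the control, differed by -1.13. CG14629 (X:945569-946661), at 2.73 RPKM in the Armi library and 7.08 RPKM in the Piwi library against 0.192 RPKM in the control, differed by -1.12. Both genes were thus several times over the control in the Armi library and higher still in the Piwi library. With a pseudocount of 5 the difference of CG32816 was -0.70, short of the limit.

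A group of 4 genes was near 0 in the control, low in the Armi library and highest in the Mael library. CG14686 (3R:6605296-6606547), listed as Desi in release 6, was at 0.98 RPKM in the Armi library and 7.54 RPKM in the Piwi library, with 42.7 RPKM in Mael, 12.4 RPKM in CG3893, 3.61 RPKM in HP1a and 0.107 RPKM in the control. CG15828 (2L:9634200-9656026), listed as Apoltp, a lipoprotein of the apolipoprotein B family, was at 0.421 RPKM in the Armi library and 3.24 RPKM in the Piwi library, with 46.6 RPKM in Mael, 7.89 RPKM in CG3893, 2.72 RPKM in HP1a and 0.089 RPKM in the control. The Armi library was the lowest knock-down for both. CG42335 (3R:17584495-17595023) was at 0.722 RPKM in the Armi library and 4.12 RPKM in the Piwi library, with 19.2 RPKM in Mael, 6.80 RPKM in CG3893, 1.55 RPKM in HP1a and 0.059 RPKM in the control. CG15278 (2L:14875113-14876236) was at 0.572 RPKM in the Armi library and 3.36 RPKM in the Piwi library, with 21.8 RPKM in Mael, 8.78 RPKM in CG3893 and 1.38 RPKM in HP1a, and was listed at 0 in the control. These 4 entered the counts through the Piwi library, since their Armi level was under 1 RPKM, and their log2 differences ran from -2.11 for CG14686 to -1.47 for CG15278. The last 2, CG42852 and CG42578, lie at loci of 221 and 279 bases. CG42852 was listed at 0 in the Armi library and at 2.09 RPKM in the Piwi library, and was listed at 0 in all the others, while CG42578 was at 0.515 RPKM in the Armi library and 2.50 RPKM in the Piwi library, against 2.02 RPKM in the control. Both likewise entered the counts through the Piwi library alone. All genes named here with a mean under 5 RPKM, at shared loci as well, fall outside the naming rule and were chosen after their values were seen.

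Only piwi, CG34187 and IM14 were higher in the Armi library at loci of their own. CG34187 (2R:11180438-11182593) was at 11.3 RPKM in the Armi library and 1.62 RPKM in the Piwi library, with 9.41 RPKM in Mael, 8.96 RPKM in CG3893, 8.03 RPKM in HP1a and 11.8 RPKM in the control. The Piwi library was the low value there, and the Armi library was close to the control. IM14, listed as Dso2 in release 6 and encoding an immune-induced peptide, was at 9.37 RPKM in the Armi library, listed at 0 in the Piwi, Mael and CG3893 libraries, at 5.62 RPKM in HP1a and at 3.07 RPKM in the control. Its locus is about as short as those of CG42852 and CG42578, and its mean is also under 5 RPKM. IM14 entered the counts through the Armi library alone. The log2 difference was 2.24 for CG34187 and 3.37 for IM14.

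**Figure D5:**
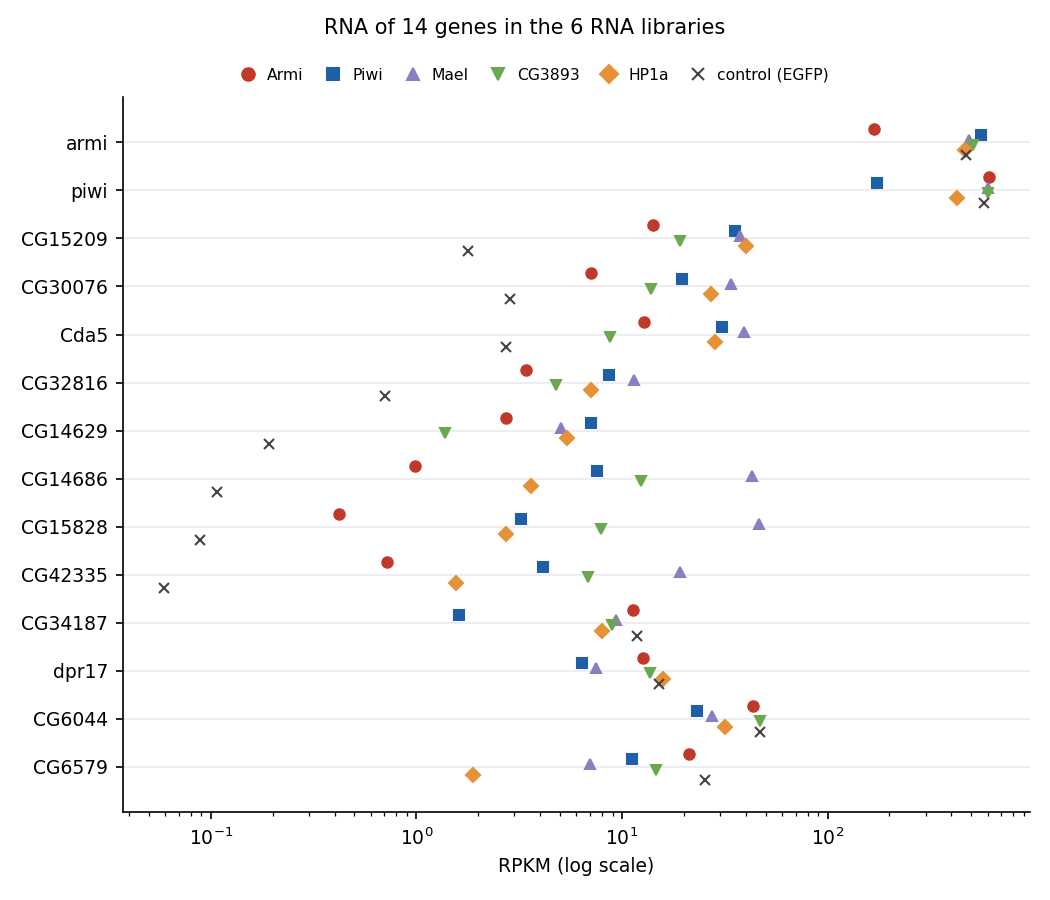
RNA of 14 genes in the 6 RNA libraries, in RPKM on a log scale, with 1 symbol per library, shifted within a row only to keep them apart. The Armi library is lowest for armi and the Piwi library for piwi. From CG15209 to CG42335 the Armi library lies between the control and the Piwi library. In CG34187, dpr17 and CG6044 the Piwi library is the lowest, at 1.62, 6.38 and 23.3 RPKM.

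A limit of 1.5-fold on genes of mean 5 RPKM or more with loci of their own, applied after values were seen, added further genes. Short RNA genes were left out. The tier held 30 lower in the Armi library and 9 higher, the targeted genes included. How many genes met its conditions at any difference is not given here, so these counts have no share of their own. In the wider set of 7417 genes, with means from 1 RPKM, 56 were lower and 28 higher at that fold. Over all 7590 genes, short RNA genes and shared loci included, 102 were lower (1.34%) and 61 were higher (0.804%). In 27 of the 30 the Armi level was between the control and the Piwi level, and in none was the Piwi level below the control. In 7 of the 9 the Piwi level was below the control. Both sets were chosen with the Piwi values, which partly fixes these orders, so they are a description only. No count of these orders over all genes is given here, so the 27 and the 7 cannot be set against a background. Lower genes included the receptor gene Ir68a (3L:11226119-11229038), at 6.72 RPKM in the Armi library and 14 RPKM in the Piwi library against 0.535 RPKM in the control. Its log2 difference of -0.96 became -1.05, past 2-fold, with a pseudocount of 0.1. Snoo (2L:7892322-7984158), a Ski family co-repressor, was at 15.5 RPKM in the Armi library and 29.7 RPKM in the Piwi library against 6.72 RPKM in the control. Both stood above the control in either knock-down and were higher in Piwi.

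Also in that tier, CG3635 was at 44.1 RPKM in the Armi library and 79.4 RPKM in the Piwi library against 8.33 RPKM in the control. Oat, ornithine aminotransferase, was at 30.5 RPKM in the Armi library and 54.9 RPKM in the Piwi library against 17.3 RPKM in the control. The cell adhesion gene Fas2 was at 201 RPKM in the Armi library and 309 RPKM in the Piwi library against 101 RPKM in the control. In each of these, the Armi level was between the control level and the Piwi level. CG4476 (3L:9204983-9208368), at 17.5 RPKM in the Armi library and 31.6 RPKM in the Piwi library against 21.3 RPKM in the control, was an exception.

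Among the higher genes, dpr17 (3R:7920599-7937144), an immunoglobulin-domain surface protein, was at 12.7 RPKM in the Armi library and 6.38 RPKM in the Piwi library, with 7.47 RPKM in Mael, 13.7 RPKM in CG3893, 15.9 RPKM in HP1a and 15.2 RPKM in the control. CG6044 was at 43.3 RPKM in the Armi library and 23.3 RPKM in the Piwi library, with 27.3 RPKM in Mael, 46.7 RPKM in CG3893, 31.6 RPKM in HP1a and 46.7 RPKM in the control. In both, Piwi and Mael were the lowest libraries and Armi was near the control. CG6579, listed as atilla in release 6, a Ly6-type surface protein, was at 21.1 RPKM in the Armi library and 11.2 RPKM in the Piwi library, with 7.00 RPKM in Mael, 14.7 RPKM in CG3893, 1.90 RPKM in HP1a and 25.4 RPKM in the control. CG33129 (2L:10964902-10970275), listed as Tmem214, was different, at 212 RPKM in the Armi library and 125 RPKM in the Piwi library against 138 RPKM in the control. Its other libraries ranged from 115 RPKM in HP1a to 130 RPKM in CG3893, so the Armi library alone was high.

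Genes of the piRNA pathway other than the targets were near equal. Of 18 cytoplasmic biogenesis factors 17 were measured, and only armi was past 2-fold, with a median of 0.00. The largest differences after armi were Hsp83, the chaperone used for loading PIWI proteins, at 1659 RPKM in the Armi library and 1349 RPKM in the Piwi library, and squ, at 20.8 RPKM in the Armi library and 26.2 RPKM in the Piwi library. The gene fs(1)Yb, which encodes the core protein of the Yb body, was at 74.2 RPKM in the Armi library and 62.2 RPKM in the Piwi library, against 61.2 RPKM in the control. The nuclease gene zuc was at 17.7 RPKM in the Armi library and 14.8 RPKM in the Piwi library, against 19.7 RPKM in the control. Both genes were slightly higher in the Armi library than in the Piwi library. Among 23 nuclear silencing factors only piwi was past the limit, with a median of -0.02, and the next was Nxt1, a partner of RNA export factors, at 164 RPKM in the Armi library and 148 RPKM in the Piwi library. The H3K9 methyltransferase gene egg was at 40.7 RPKM in the Armi library and 45.0 RPKM in the Piwi library. Of 11 germline ping-pong and cluster factors 9 were measured, and of 14 genes of the siRNA and miRNA machinery all 14, with no member of either list past 1.5-fold.

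Over 29 gene lists, 23 had no member past 2-fold, and 1 list, of fat body markers, had no measured member. Besides the list of genes higher in every knock-down, described next, the medians of the other lists ran from -0.07 to 0.28. Scaling to equal gene totals shifts differences by about -0.04, so medians nearer to 0 than that have no settled sign. The heat shock chaperones and their partners had a median of 0.15 over 17 measured genes. Of these, 15 were higher in the Armi library and none was past 1.5-fold, where 4123 of all 7590 genes were higher. Genes of high level leaned the same way. Of the 929 with a mean of 100 RPKM or more, 657 were higher and 272 lower, with a median of 0.04. Hsp70Aa was at 18.5 RPKM in the Armi library and 12.4 RPKM in the Piwi library, with 181 RPKM in HP1a and 7.44 RPKM in the control. Reads of the near-identical Hsp70 copies may be divided among them. The list of small heat shock genes had a median of 0.10 over 8 measured genes, with 5 higher and 3 lower in the Armi library. Its only member past 1.5-fold was Hsp67Bb, now listed as CG4456. That gene was lower, at 21.9 RPKM in the Armi library and 33.8 RPKM in the Piwi library, against 10.5 RPKM in the control. Its locus (3L:9365821-9366749) overlaps that of Hsp22 (3L:9366030-9368064), so these genes may hold each other's reads. Hsp22 was at 26.3 RPKM in the Armi library and 22.5 RPKM in the Piwi library.

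The list of 8 genes found higher in every knock-down was chosen on these same libraries, and its direction here is no independent evidence. All 8 were lower in the Armi library, with a median of -0.75, 1 past 2-fold (Cda5) and 6 past 1.5-fold. Besides Cda5, Ir68a and Snoo it holds ex (2L:431252-448701), a FERM-domain regulator of the Hippo pathway, at 18.0 RPKM in the Armi library and 28.5 RPKM in the Piwi library, with 39.6 RPKM in Mael, 18.5 RPKM in CG3893, 51.3 RPKM in HP1a and 2.43 RPKM in the control. Of the 16 measured Hippo pathway genes, ex was the only member past 1.5-fold, and the median was 0.05. Ret, a receptor tyrosine kinase gene, was at 32.1 RPKM in the Armi library and 42.6 RPKM in the Piwi library, against 9.12 RPKM in the control, the smallest difference of the 8 at -0.40. Shal, a potassium channel gene, was at 3.22 RPKM in the Armi library and 6.09 RPKM in the Piwi library, against 0.723 RPKM in the control. Both of these were above the control in either knock-down.

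The list of immune genes had 15 measured members, and IM14, described above with a difference of 3.37, is not among them. No listed member was past 2-fold and 2 were higher past 1.5-fold, both of them ligands of the JAK-STAT pathway. The ligand upd2 was at 2.24 RPKM in the Armi library and 0.926 RPKM in the Piwi library, with 5.11 RPKM in HP1a and 1.03 RPKM in the control. Its plain ratio was 2.42 and its log2 difference of 0.75 became 1.19, past the limit, with a pseudocount of 0.1. The ligand upd3 was at 2.21 RPKM in the Armi library and 1.12 RPKM in the Piwi library, with 4.69 RPKM in HP1a and 1.18 RPKM in the control. In both the Piwi library was near the control. Of 16 JNK and wound genes none was past 1.5-fold, the widest being the growth factor gene Pvf2, at 11.3 RPKM in the Armi library and 7.35 RPKM in the Piwi library, against 7.99 RPKM in the control. Cytoplasmic ribosomal protein genes had a median of 0.06 over 82 measured genes, none past 1.5-fold.

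Genes in heterochromatic parts of the genome were close to the rest. None of the 62 measured genes of chromosome 4, which is largely heterochromatic, was past 1.5-fold, and their median was -0.01. Of 48 measured genes on heterochromatic or unplaced arms none was past 2-fold and 1 was lower past 1.5-fold.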

How the data were processed

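For each library the authors deposited RPKM of TE entries in 1 file and RPKM of genes in another, per the file headers. Build dm3 and the tools Cufflinks 2.0.2, TopHat2 2.0.7, Bowtie2 2.0.0 and cutadapt are named in the submitters' processing notes. Not given in the sources used here: the TE sequence set, how multiply matching reads were treated, whether strand was used, and the gene annotation. Related families, gene copies and overlapping genes may therefore hold each other's reads. Gene loci keep the files' own coordinates, which may start from 0 or 1. The 161 repeated gene entries were summed by name, and 13903 of 13984 names were matched to a release 6 gene table, used for names only.

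Differences are log2((Armi + 1)/(Piwi + 1)), with a pseudocount of 1 RPKM, which understates differences of low features, and printed folds are plain ratios. Whole reads were worked out from the steps of the TE RPKM within a tolerance of 0.002 reads, for 152 of 152 entries above 0 (25 were at 0 in all libraries), and gave the library totals. This search, a best fit, and the counts past the limit were tested on simulated data. For the counts, the changed genes differed by well over 2-fold and the noise was smaller than the spread of low genes here. That simulation therefore does not show how reliable the counts are near the limit or at low levels. Genes sharing at least 90% of their loci were treated as shared. Named are up to 8 families each way past 2-fold, which came to 7 lower and 1 higher, plus a fixed set, and up to 12 genes each way past that limit whose mean reached 5 RPKM, short RNA genes apart, which came to 8 lower and 4 higher, the targeted genes, and 2 to 4 members per list. The features, lists and alternatives were chosen with earlier results of these data known. The Pol II libraries were not used, as none is of the Armi knock-down. Python 3.11.15, numpy 2.4.6, pandas 2.3.3, scipy 1.17.1 and matplotlib 3.10.9 were used.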

Additional observations from a re-analysis of the deposited data

How the results depend on the processing

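No paired analysis was possible because each group holds 1 library, and for the same reason no replicate could be left out. The median over all TE families, -0.11, ran from -0.02 without a filter on low values and -0.07 with a pseudocount of 5 to -0.15 with equal gene totals. That over all genes, 0.01, was -0.03 with equal gene totals. In place of 7 families lower in the Armi library, other pseudocounts, filters and scalings gave 5 to 10. A limit of 1.5-fold gave 11 lower families and 4-fold gave 1. The single higher entry, 5S, fell away (0) with a pseudocount of 5, with a mean of at least 10 RPKM and at 4-fold. The 24 higher genes became 40 with a pseudocount of 0.1, 14 with a pseudocount of 5, 7 with a mean of at least 10 RPKM, 5 without short RNA genes, 61 at 1.5-fold and 13 at 4-fold. The 45 lower genes became 25 with a pseudocount of 5, 12 with a mean of at least 10 RPKM, 18 without short RNA genes, 102 at 1.5-fold and 20 at 4-fold. Summing genes at the same locus, an alternative chosen after seeing the data, gave 22 higher and 39 lower. No named feature past the limit changed direction. Of 149 named features, 5 no longer passed the limit with a pseudocount of 5 and 4 came to pass it with 0.1. Depth limits entries with few reads, where counting intervals widen, such as TLD2 and 5S. Short entries of higher RPKM are among them. POGON1, of 186 bases, was at 20.5 RPKM in the Armi library on 85 reads, and its interval for Armi over Piwi ran from 0.60 to 1.02.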
